A study of Saccharomyces cerevisiae with 4 samples.

Results

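The genes described are 9 of the 7071 in the tables of a total RNA-seq experiment on budding yeast. They were picked by name and not by a measured value, although earlier results of these data were known. Of these, 5 encode the condensin subunits (SMC2, SMC4, BRN1, YCG1 and YCS4), 2 encode the ATPase arms of the Smc5/6 complex (SMC5 and SMC6), and 2 encode the DNA topoisomerases Top1 and Top2 (TOP1 and TOP2). The RNA came from 4 samples of the wild-type strain CB67, which is of W303 origin. All 4 had been held in G2/M by the microtubule poison benomyl (80 μg/ml, 90 min). Thiolutin, an inhibitor of yeast RNA polymerases, was then given to 2 of them (20 μg/ml, 30 min), and the other 2 were the DMSO controls. Replicates are named a and b in both conditions. The labels do not say whether they were grown as independent cultures, so p-values measure the spread between these libraries, which may be technical. The comparison asks how the RNA of chromosome-organizing genes stood after transcription had been inhibited for a short time.

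Condensin and Smc5/6 belong, with cohesin, to the SMC family. Each has a pair of SMC proteins whose ATPase heads are joined by a kleisin subunit to form a ring that holds and moves DNA. Condensin compacts chromosomes in mitosis and has HEAT-repeat subunits that grip DNA and regulate the ATPase. Smc5/6 acts in the resolution of recombination and replication intermediates. Topoisomerases relieve the supercoils and catenanes that replication and transcription create, and Top2 in yeast is needed to separate sister chromatids.

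A part that the SMC genes have in common is shown first. The stretches below encode the Walker A loop of the ATPase head and are on the coding strand of the R64 assembly, with the 24 bases that encode the loop in capitals and 12 bases on either side. They lie at chrVI:219978-220025 (SMC2, minus strand), chrXII:302783-302830 (SMC4, plus strand), chrXV:260115-260162 (SMC5, plus strand) and chrXII:885600-885647 (SMC6, plus strand).
SMC2: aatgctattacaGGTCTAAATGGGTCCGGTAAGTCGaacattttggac
SMC4: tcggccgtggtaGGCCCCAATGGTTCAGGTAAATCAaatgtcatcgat
SMC5: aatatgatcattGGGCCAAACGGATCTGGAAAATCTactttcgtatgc
SMC6: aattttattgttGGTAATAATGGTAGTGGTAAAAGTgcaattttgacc
The loop was found once in each protein, at codons 32 to 39 in SMC2, 185 to 192 in SMC4, 69 to 76 in SMC5 and 109 to 116 in SMC6. Between any pair of these genes, 13 to 17 of the 24 bases were the same. Even in this conserved stretch the genes differ in sequence. The expected counts, which the authors' software divides between genes when a read maps to several, were whole numbers for these genes in all 36 of the 36 values.

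A second set of sequences shows a motif shared by the condensin promoters. Each window held 300 bases, from 250 before the start codon to the first 50 of the coding sequence, in R64. The letters GTAAACA, on either strand, were searched as the core that the forkhead factors Fkh1 and Fkh2 bind. These factors are known in yeast for driving genes expressed in G2 and M. The letters occurred in the windows of all 5 condensin genes and of TOP2, and in none of SMC5, SMC6 and TOP1. Over all 6020 protein-coding genes, 6.53% of windows held them. The matches are shown on the strand of the gene with 30 bases on either side and the motif in capitals (TGTTTAC is the motif on the opposite strand). They lie at chrVI:220144-220210 (SMC2, minus strand), chrXII:302076-302142 (SMC4, plus strand), chrII:40654-40720 (BRN1, plus strand), chrIV:1117000-1117066 (YCG1, plus strand), chrXII:687278-687344 (YCS4, minus strand) and chrXIV:457522-457588 (TOP2, plus strand).
SMC2: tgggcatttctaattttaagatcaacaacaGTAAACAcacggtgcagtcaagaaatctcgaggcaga
SMC4: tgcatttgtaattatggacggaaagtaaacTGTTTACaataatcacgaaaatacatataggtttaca
BRN1: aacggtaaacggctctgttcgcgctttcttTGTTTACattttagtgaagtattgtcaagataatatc
YCG1: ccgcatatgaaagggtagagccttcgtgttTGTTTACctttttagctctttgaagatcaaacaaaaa
YCS4: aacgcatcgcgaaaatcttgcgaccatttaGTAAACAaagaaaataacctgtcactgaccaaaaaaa
TOP2: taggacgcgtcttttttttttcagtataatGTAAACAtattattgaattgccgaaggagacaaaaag
The first base of the motif lay 74 bases before the start codon in SMC2, 137 in SMC4, 147 in BRN1, 96 in YCG1, 112 in YCS4 and 152 in TOP2. The MCB element ACGCGT, which the S-phase regulator MBF binds, was in the windows of SMC2, SMC6, TOP1 and TOP2, and in 3.06% of all windows. AGGGG, bound by Msn2 and Msn4, and TTCNNGAA, a heat shock element read by Hsf1, were in the SMC2 window and in no other of the 9, with 21.6% and 12.8% of all windows holding them. CACGAAA, bound by SBF, was in the SMC4 window and in 4.19% of all windows, and TTACCCG, bound by Reb1, was in none of the 9 and in 7.06% of all. A match says that the letters are there, and nothing here measures binding.

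The depth sets how finely these genes can be read. The expected counts of all genes summed to 38613462 and 11598766 in thiolutin replicates a and b and to 27262771 and 48045781 in DMSO replicates a and b, most of them on rRNA. Genes with an ORF-type systematic name took 6.58% and 8.14% with thiolutin and 11.8% and 11.2% with DMSO. The 9 genes together had 921 and 475 counts with thiolutin and 1745 and 3248 with DMSO, with 23 (SMC5, thiolutin replicate b) as the lowest single count. The stress gene SSA4, an Hsp70 chaperone gene, stood at 782 and 895 TPM over ORFs with thiolutin, against 23.5 and 19.4 with DMSO, as a check of the labels. TPM over ORFs is used here for levels per length, the expected count per base of effective length scaled to the same sum over ORF-type genes in every library. The deposited TPM is scaled over rRNA as well, and it put these 9 genes between 0.04 and 0.60 with 2 decimals.

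Changes are given on 2 scales. TMM sets the typical gene to no change, and the median log2 fold change (thiolutin over DMSO) of the 5527 genes tested was -0.02. The S. pombe scale divides by the reads of fission yeast cells added to each sample before RNA extraction, and on it the median of all genes tested was -1.01. A gene called lower on the S. pombe scale may thus have moved no more than the typical gene, and in either case fewer cells and less RNA per cell cannot be told apart. The expected counts and S. pombe reads together made 113% to 120% of the reads sequenced, and the part of reads counted for both species in this scale was not tested.

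With TMM, 1 of the 9 genes was lower with thiolutin by the quasi-likelihood test of edgeR at an adjusted p of 0.05, namely YCG1, and 0 were higher. Among all genes tested, 17.6% were lower (971 genes) and 18.5% higher (1023 genes) at this threshold. That balance depends on the scaling, as library totals alone gave 3645 lower and 115 higher, and limma on levels plus 1 gave 1115 lower and 332 higher. At an unadjusted p under 0.05, 3 of the 9 were lower (YCG1, SMC5 and TOP1) and 0 higher, against 22.8% of all genes tested lower and 23.1% higher. DESeq2 called 1 lower (YCG1) and 0 higher after adjustment, beside 10.2% of all genes lower and 15.5% higher. For the same 3 genes both thiolutin libraries lay below both DMSO libraries, which held for 36.7% of all genes tested, and for 0 of the 9 both lay above, which held for 33.2%. At the stricter adjusted p of 1e-05 edgeR called none of the 9, against 0.199% of all genes lower and 0.796% higher. The median log2 fold change of the 9 was -0.08, beside -0.02 for all genes tested. Scaled by S. pombe reads, both thiolutin libraries lay below both DMSO libraries for all 9 genes and for 75.7% of all genes tested, with 2.48% of all genes above. The median log2 fold change of the 9 was -1.01, the same as for all genes. There 6 of the 9 were lower at an adjusted p of 0.05 (edgeR) and 0 higher, with 50.7% of all genes lower and 1.47% higher. At an unadjusted p under 0.05, 7 were lower and 0 higher, with 57.3% of all genes lower and 1.61% higher. DESeq2 called 3 lower on this scale (YCG1, SMC5 and TOP1), with 43.7% of all genes lower. With edgeR, the same 3 were lower without thiolutin replicate a (47.2% of all genes), all 9 without thiolutin replicate b (86.4% of all genes), and 0 without DMSO replicate a (2.53%) or DMSO replicate b (4.53%). Where a library was left out, the lone library of its group was assumed to vary like the other group, so these calls hold no spread within that group. The counts among the 9 thus moved with those over all genes.

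**Figure D1:**
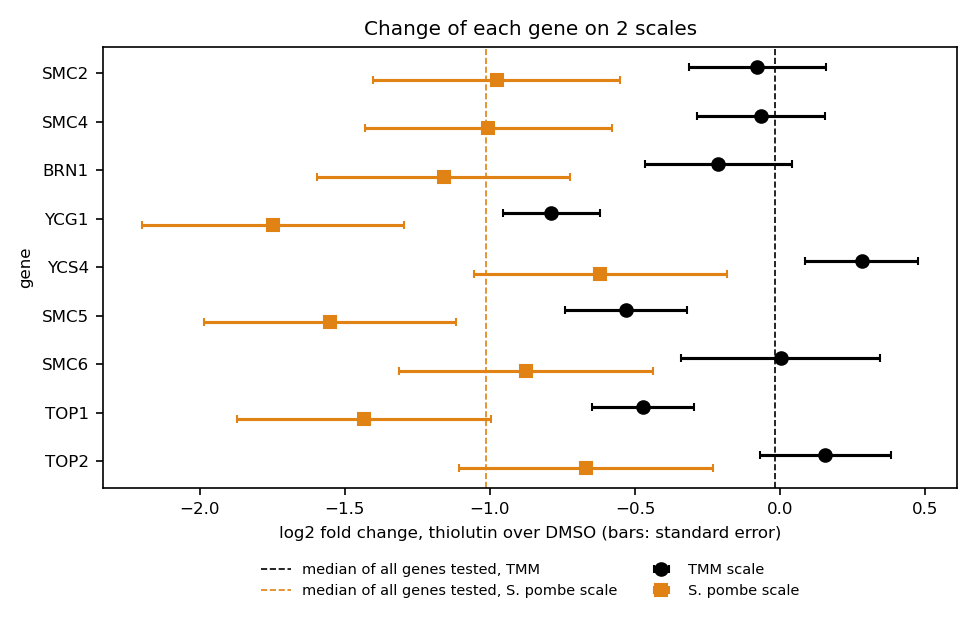
Log2 fold change of each gene (thiolutin over DMSO, x axis) on the TMM scale (black circles) and the S. pombe scale (orange squares), with standard errors as bars and dashed lines at the medians of all 5527 genes tested (-0.02 and -1.01). YCG1, SMC5, TOP1 and BRN1 lie to the left of the median on both scales, and YCS4, TOP2 and SMC6 to the right.

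YCG1 (YDR325W), on the plus strand of chromosome IV from 1117126 to 1120233, encodes the HEAT-repeat subunit that clamps DNA together with the kleisin Brn1. Its normalized read count was 140 and 153 in thiolutin replicates a and b, against 250.5 and 250.4 in DMSO replicates a and b. Both thiolutin libraries thus lay well below both DMSO libraries, which were nearly alike. This was a log2 fold change of -0.79 with a standard error of 0.17 (edgeR, adjusted p = 0.00409), or 57.9% of the DMSO level. Scaled by S. pombe reads, the counts were 78.9 and 137 with thiolutin, against 365 and 339 with DMSO. The log2 fold change was then -1.75 with a standard error of 0.45 (edgeR, adjusted p = 0.000641), or 29.8% of the DMSO level. The TMM call was lost without DMSO replicate a or b, although the log2 fold change hardly moved (-0.78 in both cases). It was kept without thiolutin replicate a (-0.71) or b (-0.86). Each of these fits left 1 library in a group and holds no spread within that group. The call with S. pombe reads was likewise lost without DMSO replicate a (-1.67) or b (-1.78). Over the alternatives with all 4 libraries, not all of which used TMM, its adjusted p was lowest with library totals (1.06e-05, edgeR, log2 fold change -1.75). It was highest with limma on levels plus 0.1 (0.0279).

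YCS4 (YLR272C), on the minus strand of chromosome XII from 683672 to 687202, encodes the other HEAT-repeat subunit of condensin. Its normalized read count was 238 and 291 in thiolutin replicates a and b, against 180 and 246 in DMSO replicates a and b. The groups overlapped, as thiolutin replicate a lay below DMSO replicate b. The log2 fold change was 0.28 with TMM (95% confidence interval -0.15 to 0.71, adjusted p = 0.282 from edgeR) and -0.62 on the S. pombe scale (adjusted p = 0.213, edgeR), so its sign depends on the scale. With S. pombe reads it was at -0.20 without thiolutin replicate a and at -1.16 without thiolutin replicate b. YCS4 and YCG1 are thus found at the opposite ends of the 9 genes.

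This difference between the HEAT-repeat genes can be shown without any scaling, as the share of YCG1 among the reads of both genes in a library. These genes had the lowest and highest change of the 9 in the same data. The share thus restates their values and is not separate support. How often the shares of other gene pairs part by group was not counted. The share was 37.0% (95% Wilson interval 32.0% to 42.3%) and 34.4% (27.3% to 42.3%) in thiolutin replicates a and b, against 58.3% (54.3% to 62.1%) and 50.5% (47.6% to 53.3%) in DMSO replicates a and b. The intervals of the thiolutin libraries do not meet those of the DMSO libraries, although they cover counting error only. Per length, YCG1 stood at 0.67 and 0.60 times the level of YCS4 with thiolutin, and at 1.59 and 1.16 times with DMSO. YCG1 had the higher level of the pair in both DMSO libraries and the lower in both thiolutin libraries. An exact two-sided permutation test over the libraries gave p = 0.33 (0.4 after Benjamini-Hochberg adjustment over the 6 gene pairs compared), and 0.33 is the smallest p that 2 libraries against 2 can give.

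SMC2 (YFR031C, chromosome VI, 216594 to 220106, minus strand) and SMC4 (YLR086W, chromosome XII, 302243 to 306499, plus strand) encode the ATPase arms of condensin. SMC2 had normalized read counts of 80.0 and 118 in thiolutin replicates a and b, against 88.7 and 109 in DMSO replicates a and b. SMC4 had 77.8 and 100.0 with thiolutin, against 85.1 and 94.4 with DMSO. For both genes the DMSO libraries lay between the thiolutin libraries. The log2 fold changes with TMM were -0.08 for SMC2 (95% confidence interval -0.60 to 0.44) and -0.07 for SMC4 (-0.55 to 0.42), with adjusted p = 0.815 and 0.835 in edgeR. SMC2 took 50.7% and 54.1% of the reads of the pair with thiolutin and 51.0% and 53.6% with DMSO. The pair thus kept nearly the same proportion in the 4 libraries, with means of 52.4% with thiolutin and 52.3% with DMSO. Scaled by S. pombe reads, both were lower with thiolutin, at -0.98 for SMC2 (adjusted p = 0.0431, edgeR) and -1.01 for SMC4 (adjusted p = 0.0376, edgeR), close to the median of all genes. Both calls were lost with DESeq2 (adjusted p = 0.1 and 0.0823), without thiolutin replicate a (-0.40 and -0.49 in edgeR, adjusted p = 0.229 and 0.158) and without either DMSO library.

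BRN1 (YBL097W, chromosome II, 40831 to 43095, plus strand) encodes the kleisin of condensin. It had normalized read counts of 51.8 and 73.6 in thiolutin replicates a and b, against 68.1 and 70.1 in DMSO replicates a and b. Again the thiolutin libraries lay on either side of the DMSO libraries. The log2 fold change was -0.21 with TMM (95% confidence interval -0.77 to 0.34, adjusted p = 0.538 from edgeR) and -1.16 on the S. pombe scale (adjusted p = 0.0192, edgeR). That call with S. pombe reads was lost with DESeq2 (adjusted p = 0.0701), without thiolutin replicate a (-0.55 in edgeR, adjusted p = 0.159) and without either DMSO library. BRN1 took 17.9% and 20.2% of the reads of BRN1 and YCS4 with thiolutin, against 27.5% and 22.2% with DMSO. The shares did not overlap between the groups, but the Wilson interval of thiolutin replicate b (14.05% to 28.1%) met those of both DMSO libraries. SMC2 set against YCS4 gave 25.2% and 28.8% with thiolutin, against 33.1% and 30.7% with DMSO.

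**Figure D2:**
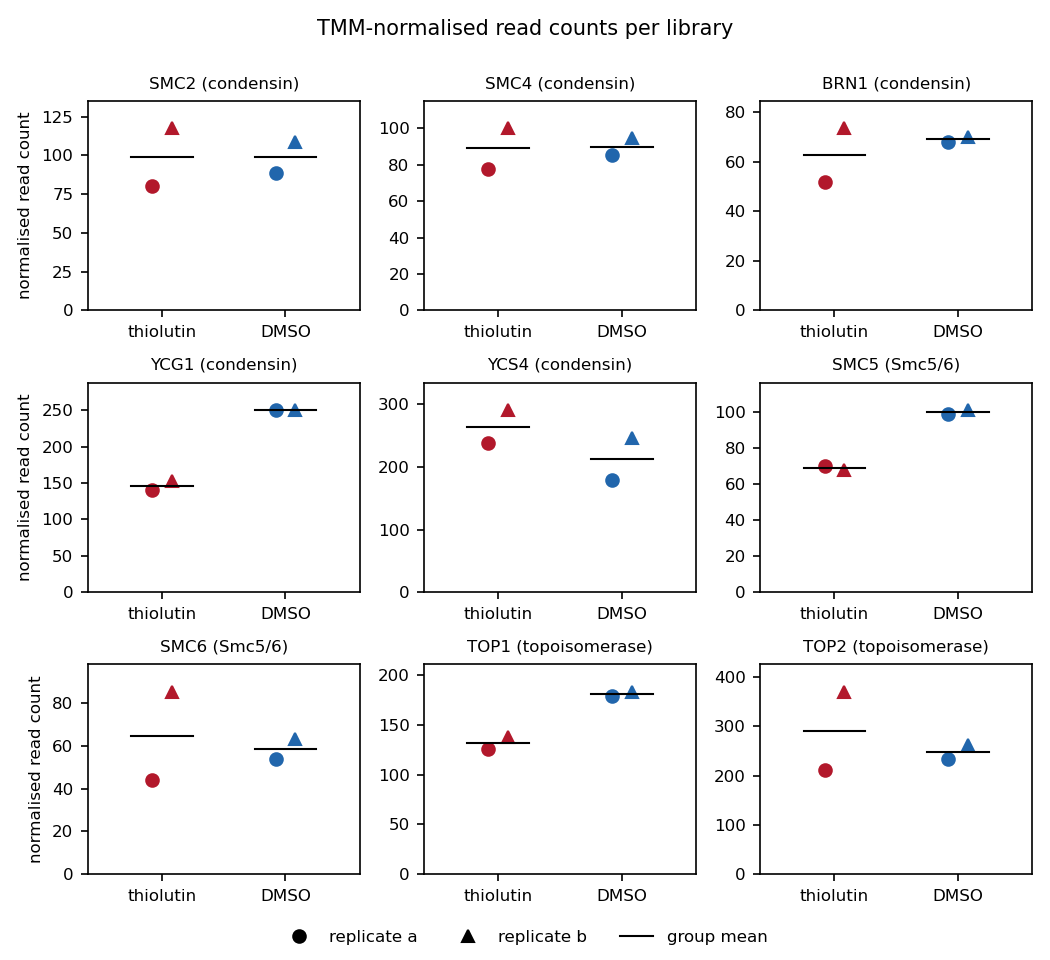
TMM-normalized read counts (y axis, from 0) of the 9 genes in the thiolutin libraries (red, left) and DMSO libraries (blue, right), with replicate a as circles, replicate b as triangles and the group mean as a line (n = 2 each). YCG1, SMC5 and TOP1 have both thiolutin points below both DMSO points, as do 36.7% of all genes tested, and in the other 6 genes the groups overlap.

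SMC5 (YOL034W, chromosome XV, 259923 to 263204, plus strand) and SMC6 (YLR383W, chromosome XII, 885288 to 888632, plus strand) encode the ATPase arms of the Smc5/6 complex. SMC5 had normalized read counts of 69.9 and 67.7 in thiolutin replicates a and b, against 98.6 and 101 in DMSO replicates a and b. The replicates were close to each other and the groups did not overlap, but the log2 fold change of -0.53 with TMM (95% confidence interval -0.995 to -0.07) did not pass the threshold (adjusted p = 0.0695, edgeR). With genes of a mean of at least 50 counts alone it passed, at -0.57 (adjusted p = 0.0432, edgeR). It did not pass with DESeq2 (-0.51, adjusted p = 0.342). In edgeR the likelihood ratio test (adjusted p = 0.0521) and the length offset (-0.395, adjusted p = 0.163) gave no call either. With S. pombe reads as the scale SMC5 was lower with thiolutin, at -1.55 (edgeR, adjusted p = 0.00161). That call was lost without DMSO replicate a (-1.49) or b (-1.56). SMC6 had normalized read counts of 43.9 and 85.3 with thiolutin, against 53.9 and 63.3 with DMSO. Its thiolutin libraries lay on both sides of the controls and its log2 fold change with TMM was 0.00 (95% confidence interval -0.75 to 0.75, adjusted p = 0.998, edgeR), which leaves room for sizable changes in either direction. With S. pombe reads SMC6 was at -0.88 (adjusted p = 0.0774, edgeR), but at -0.11 without thiolutin replicate a and at -1.73 without thiolutin replicate b. SMC5 took 61.4% and 44.2% of the reads of the pair with thiolutin, against 64.7% and 61.5% with DMSO. The lower share of thiolutin replicate b rested on 52 counts for both genes, and its interval (31.6% to 57.7%) met that of thiolutin replicate a (51.6% to 70.3%).

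TOP1 (YOL006C, chromosome XV, 313078 to 315387, minus strand) encodes topoisomerase I, which nicks a DNA strand to release supercoils ahead of and behind polymerases. It had normalized read counts of 126 and 138 in thiolutin replicates a and b, against 179.5 and 184 in DMSO replicates a and b. The groups did not overlap, and the log2 fold change was -0.47 with TMM (95% confidence interval -0.86 to -0.09), which missed the threshold narrowly (adjusted p = 0.0545, edgeR). It was -0.39 without thiolutin replicate a and -0.54 without thiolutin replicate b. It passed with the likelihood ratio test (adjusted p = 0.035), no filter on low counts (0.0467) and a mean of at least 50 counts (0.0344), all in edgeR. With DESeq2 (-0.44, adjusted p = 0.28) and the length offset (-0.29, adjusted p = 0.187, edgeR) it did not pass. TOP1 was lower with thiolutin on the S. pombe scale, at -1.43 (edgeR, adjusted p = 0.00386). That call was lost with the replicate block (adjusted p = 0.0669, edgeR) and without DMSO replicate a (-1.37) or b (-1.45).

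TOP2 (YNL088W, chromosome XIV, 457704 to 461990, plus strand) encodes topoisomerase II, which passes a DNA duplex through another and decatenates sister chromatids. It had normalized read counts of 211 and 371 in thiolutin replicates a and b, against 234 and 263 in DMSO replicates a and b. The thiolutin libraries thus spread far more than the controls, and the difference of the means was smaller than their spread. The log2 fold change was 0.16 with TMM (95% confidence interval -0.34 to 0.66, adjusted p = 0.618 from edgeR) and -0.67 on the S. pombe scale (adjusted p = 0.179, edgeR). With TMM it was 0.57 without thiolutin replicate a and -0.26 without thiolutin replicate b, so a single library decides its direction. With S. pombe reads the same omissions gave -0.07 and -1.55. TOP1 took 37.5% and 27.2% of the reads of TOP1 and TOP2 with thiolutin, against 43.4% and 41.1% with DMSO. The shares did not overlap between the groups, but the rate of this over other gene pairs was not counted. The Wilson intervals cover counting error only. That of thiolutin replicate b (21.1% to 34.2%) lay below those of both DMSO libraries, which began at 39.4% and 38.2%. That of thiolutin replicate a (32.2% to 43.1%) met both. The exact permutation test gave p = 0.33 here too, as for all of the 6 pairs except SMC2 and SMC4 (p = 1).

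**Figure D3:**
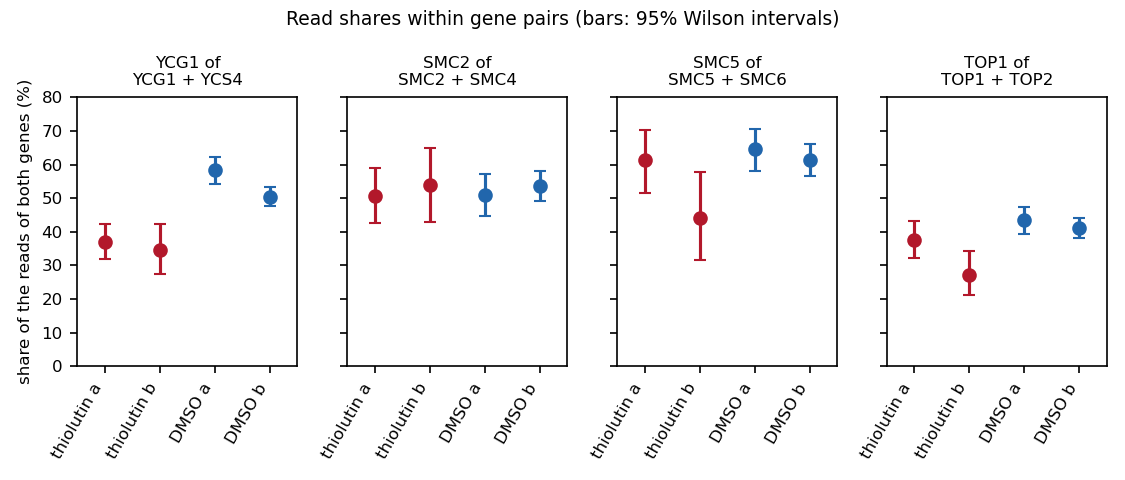
Share of the reads of a gene pair that came from the gene named first (y axis, percent) in each library, thiolutin in red and DMSO in blue, with 95% Wilson intervals that cover counting error only. The YCG1 share is 37.0% and 34.4% with thiolutin, against 58.3% and 50.5% with DMSO, whereas the SMC2 share lies between 50.7% and 54.1% in all 4 libraries.

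Per length, these were genes of middle or low level. In the thiolutin libraries a and b, the order began with YCS4 (14.9 and 21.0 TPM over ORFs), TOP2 (10.9 and 21.9), TOP1 (12.2 and 15.4) and YCG1 (10.0 and 12.5). In the DMSO libraries it began with YCG1 (22.5 and 22.8), TOP1 (21.9 and 22.6), YCS4 (14.2 and 19.6) and TOP2 (15.2 and 17.3). Neighbours in the thiolutin order overlapped. In the DMSO libraries YCG1 and TOP1 overlapped, as did YCS4 and TOP2, and the first pair lay above the second. The other 5 genes were lower in every library. SMC2 had 5.06 and 8.51 TPM over ORFs with thiolutin and 7.03 and 8.74 with DMSO, BRN1 had 5.13 and 8.34 with thiolutin and 8.46 and 8.83 with DMSO, and SMC5 had 4.73 and 5.25 with thiolutin and 8.38 and 8.71 with DMSO. SMC4 had 4.04 and 5.95 with thiolutin and 5.55 and 6.23 with DMSO, and SMC6 had 2.92 and 6.49 with thiolutin and 4.49 and 5.35 with DMSO. SMC6 was the lowest of the 9 in both DMSO libraries. Condensin subunits, although they assemble in equal numbers, were thus not equal in mRNA. The highest level was 3.70 and 3.52 times the lowest within condensin with thiolutin, and 4.05 and 3.65 times with DMSO.

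The sums over each complex show the same spread of the thiolutin libraries. The 5 condensin genes summed to 39.2 and 56.3 TPM over ORFs in thiolutin replicates a and b, against 57.7 and 66.2 in DMSO replicates a and b. SMC5 and SMC6 summed to 7.65 and 11.7 with thiolutin, against 12.9 and 14.1 with DMSO. TOP1 and TOP2 summed to 23.1 and 37.3 with thiolutin, against 37.0 and 39.9 with DMSO. The sums of condensin and of the SMC5 and SMC6 pair were lower in both thiolutin libraries than in both DMSO libraries, and those of the topoisomerases overlapped. On this scale 49.5% of single ORF-type genes tested were lower in both thiolutin libraries. Without YCG1 the condensin sums were 29.2 and 43.8 with thiolutin, against 35.2 and 43.4 with DMSO, and overlapped. In each case thiolutin replicate b lay nearer to the controls. When libraries of the same letter were set side by side with S. pombe reads as the scale, although the letters mark no stated pairing, the log2 ratio of thiolutin to DMSO over the 9 genes ran from -2.21 to -0.96 for a and from -1.30 to -0.10 for b. The medians over 5270 ORF-type genes were -1.39 for a and -0.64 for b.

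The 9 genes are long, 2265 bases (BRN1) to 4287 bases (TOP2), with 1 coding exon each and no annotated gene overlapping them on either strand. The 1000 tested ORF-type genes of at least 2265 bases had a median log2 fold change of -0.11 with TMM, near that of the 9, and 17.4% of them were lower at an adjusted p of 0.05 (edgeR). Across the 5350 tested ORF-type genes, log2 fold change and length had a Spearman rho of -0.04, given as a description because all genes share the same libraries. With an offset for gene length YCG1 was again the gene called lower.

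By root mean square distance of gene-centred log2 CPM over the 4 libraries, the genes nearest to YCG1 were CHK1 (0.0109), CNM67 (0.0139) and COQ6 (0.01395), among 5349 ORF-type genes compared. CHK1, a DNA damage checkpoint kinase gene, had normalized read counts of 104 and 112 with thiolutin, against 183 and 186 with DMSO. CNM67, which encodes a spindle pole body protein, had 64.2 and 70.6 with thiolutin, against 118 and 116 with DMSO. COQ6, which encodes an enzyme of coenzyme Q synthesis, had 156 and 168 with thiolutin, against 280 and 282 with DMSO. They were picked for nearness to YCG1, so their narrow gap between replicates and wider one between groups come from that choice.

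The genes that work with these complexes were taken from lists made by function, 40 genes of which 38 were tested. Earlier results of these data were known when the lists were made. With TMM 8 of the 38 were lower and 1 higher at an adjusted p of 0.05 (edgeR), beside 17.6% of all genes tested lower and 18.5% higher, and their median log2 fold change was -0.22, beside -0.02 for all genes tested. With S. pombe reads 22 were lower and 0 higher, beside 50.7% and 1.47% of all genes, and the median was -1.19, beside -1.01. The lists with the lowest medians with TMM were Top3, Rmi1 and Sgs1 (-1.21) and the Smc5/6 partners (-0.58). Those with the highest were the SUMO pathway (0.41) and the SMC genes of cohesin (0.39), with 0 genes called in either.

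All 5 tested partners of Smc5/6 had negative log2 fold changes with TMM, as did 2816 of the 5527 genes tested. Their median was -0.58. The 3 that were lower at the threshold were the kleisin gene NSE4 at -1.31 (adjusted p = 0.00921, edgeR), NSE1 at -1.18 (adjusted p = 0.00107, edgeR) and NSE3 at -0.54 (adjusted p = 0.0493, edgeR). NSE5 was at -0.57 (adjusted p = 0.0837, edgeR) and KRE29, which encodes Nse6, at -0.58 (adjusted p = 0.274, edgeR). NSE1 and NSE3 encode partners of the kleisin near the ATPase heads. MMS21, the SUMO ligase gene of the complex, had too few reads for the test, with 0 in both thiolutin libraries and normalized counts of 10.6 and 3.83 with DMSO. All 5 tested partners were lower on the S. pombe scale (adjusted p at most 0.00444, edgeR), where 50.7% of all genes tested were lower.

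Of the genes of the Top3 complex, which unlinks recombination intermediates, TOP3 was at -1.90 (adjusted p = 0.0142, edgeR) and RMI1 at -1.21 (adjusted p = 0.00145, edgeR), and the helicase gene SGS1 was at 0.08. TOP3 rested on few reads, with normalized counts of 6.76 and 5.88 with thiolutin, against 23.4 and 25.5 with DMSO. Among genes that place or regulate condensin, FOB1, which encodes the fork block protein of the rDNA, was at -0.67 (adjusted p = 0.0127, edgeR) and the polo kinase gene CDC5 at -1.07 (adjusted p = 0.00185, edgeR). SLX5, part of a SUMO-targeted ubiquitin ligase, was at -1.17 (adjusted p = 0.0114, edgeR). These 5 genes were lower on the S. pombe scale as well. CKB1, a subunit gene of casein kinase 2, which phosphorylates Top2, was the 1 listed gene higher with TMM, at 0.80 (adjusted p = 0.00215, edgeR), but was at -0.14 on the S. pombe scale (adjusted p = 0.786, edgeR). The SMC genes of cohesin stood on the other side of the median from SMC5, with 0.50 for SMC1 and 0.28 for SMC3 with TMM, and -0.40 and -0.52 on the S. pombe scale, and did not pass the test on either scale.

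**Figure D4:**
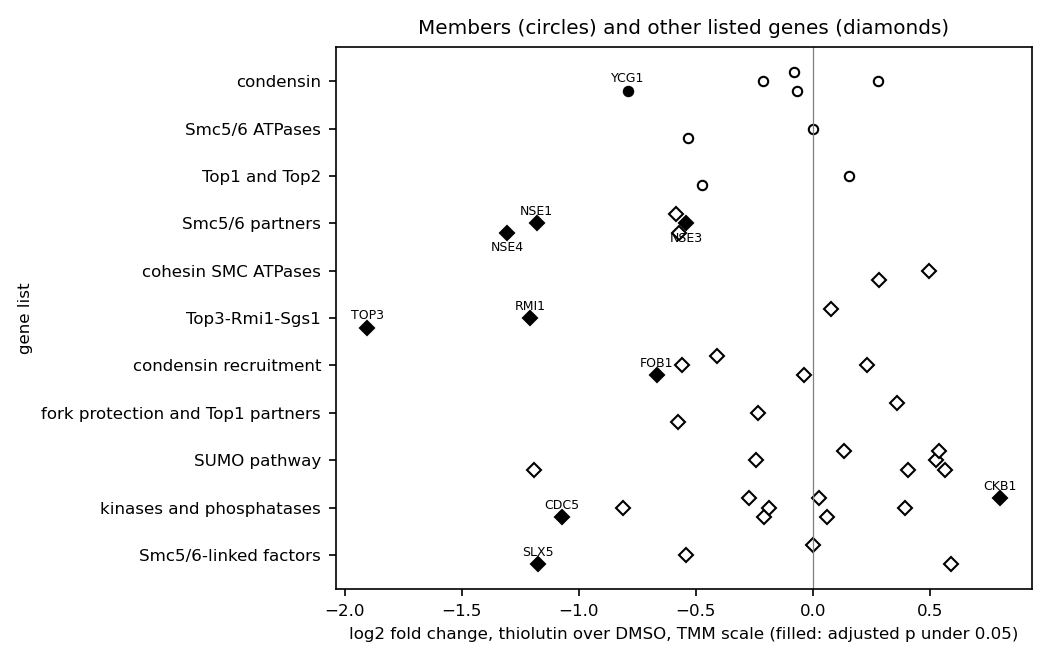
Log2 fold change with TMM (thiolutin over DMSO, x axis) of the 9 genes (circles) and the 38 other listed genes tested (diamonds), by list, with filled symbols where edgeR gave an adjusted p below 0.05. The 5 tested Smc5/6 partners all lie left of 0, as do 2816 of the 5527 genes tested. YCG1 is the filled circle at -0.79, and CKB1 is the filled symbol on the right at 0.80.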

How the data were processed

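Single-end, stranded reads were mapped by the authors with STAR 2.7.3a, and the deposited tables hold RSEM 1.3.1 expected counts (estimated reads per gene, not normalized) and TPM. Per the submitters' processing notes the build was sacCer3, which is the R64 assembly. Its RefSeq annotation matched 6006 of 7071 identifiers and the length of all 9 genes.

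The expected counts were rounded, filtered with filterByExpr, scaled by TMM and tested with edgeR 4.0.16 (quasi-likelihood, treatment alone, 2 against 2 libraries) in R 4.3.3, with Benjamini-Hochberg adjustment over the 5527 genes tested. Standard errors are the absolute log2 fold change over the square root of F. For the S. pombe scale, library sizes were the S. pombe reads (Bowtie 1.2.2) from the study's read statistics. Alternatives changed the scaling, filter, test (DESeq2 1.42.0, limma 3.58.1), replicate block, length offset and libraries kept. Counts of replicates, with a chi-square of 6.41 (thiolutin) and 4.56 (DMSO) per degree of freedom, differed beyond sampling noise, so each was kept as 1 library. The 9 genes and the lists were chosen with earlier results of these data known. Named besides the 9 were listed genes under an adjusted p of 0.05 with TMM (up to 10) and the 3 genes nearest in pattern to the member with the largest called change.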

Additional observations from a re-analysis of the deposited data

How the results depend on the processing

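With TMM, 1 gene was called lower and 0 higher, with a median log2 fold change of -0.08. Library totals called 9 lower (median -1.03), beside 65.9% of all genes tested (median -0.99). No filter on low counts called 2 lower (16.9% of all genes), a mean of at least 50 counts 3 (22.3%) and the likelihood ratio test 2 (20.4%). The gene length offset with the replicate block called 1 higher (YCS4), beside 23.8% of all genes. With 1 library left out in turn, 0 to 2 were lower, 0 to 1 higher, and the median ranged from -0.43 to 0.15. On the S. pombe scale, where 6 were lower (median -1.01), the DESeq2 Wald test called 3, and leaving out a library gave 0 to 9 with medians from -1.72 to -0.49. The letters a and b do not mark a stated batch, and their differences correlated by 0.03 across genes between thiolutin and DMSO. The replicate block called 1 lower with TMM (17% of all genes) and 2 on the S. pombe scale (25.2%). Over all genes, edgeR called 971 lower with TMM, against 563 with the DESeq2 Wald test, and 1023 higher, against 296 with limma on levels plus 0.1. Leaving out a library gave 442 to 1219 lower and 368 to 1259 higher. For S. pombe reads the 2804 lower became 1393 and the 81 higher 48 with the block, and 143 to 4937 lower and 9 to 265 higher with a library left out.

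Genes near no change with TMM turned sign under other settings. Library totals use no TMM factors and put the median of all genes tested at -0.99. With them YCS4 was at -0.65, SMC6 at -0.94 and TOP2 at -0.73. SMC6 was also at -0.014 with no filter and -0.045 with a mean of at least 50 counts. Limma on levels plus 1 and plus 0.1, without TMM, put SMC6 at -0.12 and -0.17 and TOP2 at -0.059 and -0.067. The medians of all genes tested were -0.26 and -0.28 there. SMC2 was at 0.0074 with the length offset and 0.051 with the block added. With 1 library left out, SMC2 ranged from -0.34 to 0.24, SMC4 from -0.23 to 0.15, BRN1 from -0.43 to 0.089, SMC6 from -0.44 to 0.53 and TOP2 from -0.26 to 0.57. A lone library was assumed to vary like the other group. YCG1 kept its call in 13 of 15 settings. On the S. pombe scale no gene turned sign in the 9 settings run. Counts of 23 to 211 per gene with thiolutin limit what could be detected, and small changes are not shown to be absent.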
